A study of Danio rerio with 12 samples.

Results

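Cells take up soluble protein through surface receptors and a clathrin coat, and the genes described here encode such receptors and coat proteins. They are the receptor genes cubn, amn, lrp2a and lrp2b, the cargo adaptor gene dab2, the AP2 adaptor genes ap2s1, ap2m1a and ap2a1, and the clathrin genes clta and cltca. They were chosen by name, ignoring case, as genes for the uptake of soluble protein, the task proposed for metaphocytes. The 10 names matched 12 of the 32520 gene identifiers in the count table, with 2 identifiers each for dab2 and ap2m1a. Symbols are printed as the name table gives them, so that dab2 (ENSDARG00000031761) and DAB2 (ENSDARG00000053091) are different identifiers. The tables do not tell whether they are separate paralogs or a differently annotated locus. lrp2a was reached through a RefSeq synonym as LRP2 (ENSDARG00000102506). ap2m1a was reached in the same way as AP2M1, a symbol that ENSDARG00000002790 and ENSDARG00000033899 share, and the tables do not tell which of them is ap2m1a. After the filter on low counts 8 of the 12 identifiers were tested, and the 4 receptor genes were not.

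RNA was sequenced from sorted cells of adult zebrafish, with 3 libraries each of gill GFP, gill DsRedx, intestine GFP and intestine DsRedx cells. The design text names the GFP cells metaphocytes and the DsRedx cells macrophages, and a library was made from 30 to 50 cells by the SMART-seq2 method. All fish carried 2 joined transgenes, sox17:CreERT2 and mpeg1:loxP-DsRedx-loxP-GFP, in which the mpeg1 promoter of macrophages drives DsRedx, or GFP once a Cre recombinase under the sox17 promoter, active in endoderm, has cut out the DsRedx gene. CreERT2 is a form of Cre that needs tamoxifen, and the labels do not say when it was given. A GFP cell is thus defined by past sox17 activity under that treatment and by present mpeg1 activity. A DsRedx cell is one with mpeg1 activity in which the DsRedx gene was not cut out. The sources used here do not say whether replicates came from separate fish. The p-values then measure the spread between these libraries, which may be technical.

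In receptor-mediated endocytosis a receptor binds its cargo outside the cell, an adaptor links the receptor tail to clathrin, and the coated membrane buds inward. Cubilin, with its membrane anchor amnionless, and megalin (the lrp2 product) are large receptors that recover proteins, vitamins and carrier proteins in absorptive epithelia such as the kidney proximal tubule and, in fish and suckling mammals, the lysosome-rich enterocytes of the gut. Dab2 binds the tail of megalin, and AP2 is a complex of an alpha, a beta, a mu and a sigma subunit that gathers cargo and clathrin at the plasma membrane.

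The libraries held 5895669 to 12365233 counts each. The sorted populations differed as named: summed over 31 identifiers, macrophage and leukocyte markers ran from 16065 to 27974 CPM (counts scaled to 1000000 per library, on library sizes adjusted by TMM) in gill GFP, against 39740 to 63640 CPM in gill DsRedx libraries. They ran from 7356 to 8613 CPM in intestine GFP, against 31810 to 43858 CPM in intestine DsRedx libraries. Such sums weigh abundant markers most. Over the 26 of these identifiers that were tested, the median log2 fold change of GFP over DsRedx was -6.84 in gill. In intestine it was -6.86. Epithelial markers, 21 identifiers, ran from 9700 to 13946 CPM in gill GFP, against 830.0 to 5458 CPM in gill DsRedx libraries, and from 10250 to 14246 CPM in intestine GFP, against 1298 to 1876 CPM in intestine DsRedx libraries. Enterocyte markers, with 18 of 21 identifiers read, summed to 3438 to 4141 CPM in intestine GFP libraries, against 153.8 to 559 CPM in intestine DsRedx libraries, and to at most 60.2 CPM in any gill library. Genes abundant in 1 color of a tissue were also read at a low level in the other color. The median of that level was 1.3% in gill over 56 genes and 1.11% in intestine over 71 genes. It is set below beside dab2, DAB2, AP2S1 and ldlra. Other genes with large folds, such as AP1M2, gipc2, SORL1, SORT1 and scarb2a, were also low in 1 color. Their low values were not set against it, and whether they stem from it was not tested. In such pooled cells, fewer cells of a type and less RNA per cell cannot be told apart.

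The 4 receptor genes among the members were close to 0 in all 4 groups. CUBN (cubn, ENSDARG00000087013), the cubilin gene, had 1 count, in gill GFP replicate 3, and 0 in the other 11 libraries. Its anchor gene amn (ENSDARG00000062947) and the megalin gene LRP2 had 0 counts in all 12 libraries. The second megalin gene, lrp2b (ENSDARG00000007906), had 3 counts in all, 1 each in intestine GFP replicate 2 and intestine DsRedx replicates 1 and 3. The 12 libraries together held 98925545 counts, and a count of 0 over them allows up to 0.0303 CPM of the total (3 counts). For a single library that limit ran from 0.243 to 0.509 CPM of its own total. The limits cover counting error only, since reads were not counted by molecule. At this depth neither cubilin nor megalin RNA was detectable above such limits in the GFP or the DsRedx cells of either tissue, and no fold change is given for them.

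RNA of the cargo adaptor Dab2 was read, from 2 identifiers with different groups. dab2 (ENSDARG00000031761) was at 129, 50.2 and 132 CPM in the intestine GFP libraries, against 1.24, 0.796 and 0.865 CPM in the intestine DsRedx libraries. In gill it had 2, 2 and 0 counts in the GFP libraries and 0 counts in each DsRedx library. All 3 intestine GFP libraries thus lay above the other 9, and no gill library exceeded 2 counts. Per length, it was at 83.1, 34.0 and 79.3 TPM (read counts divided by gene length and scaled to 1000000 per library) in intestine GFP libraries and at no more than 0.607 TPM elsewhere.

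Between the tissues, dab2 was lower in gill GFP than in intestine GFP cells by the quasi-likelihood test of edgeR, with p-values adjusted over 10666 genes by the Benjamini-Hochberg method, which gives every adjusted p below. The log2 fold change was -9.15 (SE 2.24, adjusted p = 0.0396), and on 4 counts in the 3 gill GFP libraries against 3817 in intestine GFP libraries the pooled ratio was 614-fold (exact 95% interval 240 to 2256, counting error only). Of the 8 tested members it was the 1 called in this comparison, lower in gill GFP, beside 1.33% of all genes called lower, 0.703% called higher and 2.03% called either way. Of 12 fits with 1 library removed the call was kept in 4, those without gill DsRedx replicate 1, 2 or 3 or intestine DsRedx replicate 2 (adjusted p = 0.0274, 0.0244, 0.0316 and 0.0454). It was not kept without gill GFP replicate 1, 2 or 3 (0.157, 0.140 and 0.156), intestine GFP replicate 1, 2 or 3 (0.173, 0.108 and 0.210) or intestine DsRedx replicate 1 or 3 (0.0571 and 0.0518), while the log2 fold change stayed between -9.67 and -8.64. Of the 12 other alternatives 7 called it. Enterocyte markers moved with it: in gill GFP libraries 2 of 21 identifiers had a count, with a sum of at most 15.1 CPM, against 18 of 21 and a sum of at least 3438 CPM in intestine GFP libraries, where SLC15A1 (1 of 2 identifiers), RBP2 (1 of 2) and tmigd1 were at 0. Endothelial and stromal markers, with 3 of 12 identifiers read in each of these groups, summed to 5.64 to 21.7 CPM in gill GFP libraries. They summed to 304 to 551 CPM in intestine GFP libraries. There kdrl, KDR, cdh5, lyve1b, col1a1a, COL1A2, COL5A1, acta2 and TAGLN were at 0, so the sum came from the 3 identifiers read. Only 1 of the 12 identifiers was tested. The part of either list in the dab2 difference was not tested.

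Within the intestine, dab2 was higher in all 3 GFP libraries than in the 3 DsRedx libraries but was not called. The log2 fold change of intestine GFP over intestine DsRedx was 6.73 (SE 2.00, adjusted p = 0.0702), and the pooled ratio was 111-fold (exact 95% interval 73.5 to 178, counting error only). DESeq2 (adjusted p = 6.59e-06), both fits on log2 TPM and the fit of the 2 intestine groups alone called it. The intestine DsRedx values were 0.767 to 1.19% of the intestine GFP mean, at the low level shared within the tissue. That level, 1.11%, was above or close to each of these values, so its subtraction left almost no intestine DsRedx counts. No fold is given for that fit (adjusted p = 0.0529).

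DAB2 (ENSDARG00000053091), the other identifier of that name, had the opposite color and large gaps between libraries. It had 1, 1 and 2 counts in gill GFP libraries, against 1, 179 and 752 counts in gill DsRedx libraries. In the intestine it had 4, 2 and 4 counts in GFP libraries, against 57, 409 and 3 counts in DsRedx libraries. In CPM it was under 0.35 in every GFP library, while the DsRedx libraries ran from 0.191 to 103.8 in gill and from 0.370 to 54.3 in intestine. The GFP values were 0.236 to 0.691% of the DsRedx mean in gill and 0.918 to 1.67% in intestine. The shared low levels of these tissues were 1.3% and 1.11%. One library of each DsRedx group was as low as the GFP libraries or nearly so, and in gill the groups overlapped. The pooled ratio was 293-fold lower in gill GFP than in gill DsRedx cells (exact 95% interval 114 to 1078) and 73.0-fold lower in intestine GFP than in intestine DsRedx cells (39.3 to 153), with intervals for counting error only. In gill the fitted log2 fold change was -7.82, and -8.43 to -6.33 in fits without 1 library, with -6.33 without gill DsRedx replicate 3. For intestine it was -6.15, and -6.90 to -3.81 in such fits, with -3.81 without intestine DsRedx replicate 2. The intestine size thus rested largely on that 1 library. By the test over all genes neither was called (adjusted p = 0.0921 in gill and 0.156 in intestine), while DESeq2 called both (7.42e-05 and 0.00146).

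**Figure D1:**
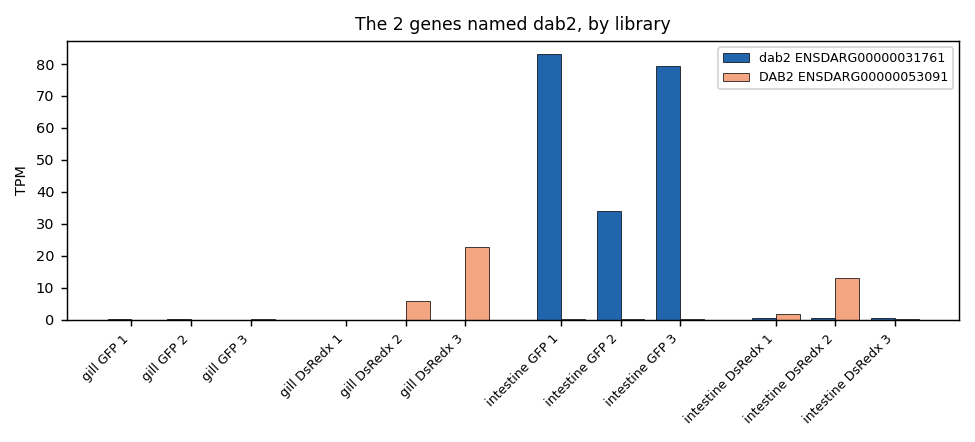
Level of the 2 identifiers named dab2 in each of the 12 libraries, as bars in TPM from 0, blue for dab2 (ENSDARG00000031761) and orange for DAB2 (ENSDARG00000053091). The blue bars reach 34.0 to 83.1 TPM in the 3 intestine GFP libraries and the orange bars show in gill DsRedx 2 and 3 and intestine DsRedx 1 and 2.

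The 2 identifiers together therefore gave each library a different mix. Of the TPM summed over both, dab2 made up 99.8 to 99.9% in intestine GFP libraries, against 25.5, 3.08 and 83.5% in intestine DsRedx libraries. The sums in those intestine DsRedx libraries were 2.38, 13.5 and 0.514 TPM, the last on 7 dab2 and 3 DAB2 counts. In gill DsRedx libraries dab2 made up 0%, with DAB2 carrying all of the 0.0421, 5.96 and 22.7 TPM read. In gill GFP libraries both identifiers together came to at most 0.212 TPM. How reads that match both were assigned is not stated in the labels or notes.

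Among the AP2 subunit genes, AP2S1 (ENSDARG00000026967), which encodes the sigma subunit, separated the colors in gill. It was at 69.2, 231 and 250.0 CPM in gill GFP libraries, against 1.53, 2.26 and 1.79 CPM in gill DsRedx libraries. The lowest gill GFP library lay far above the highest gill DsRedx library. The log2 fold change was 6.61 (SE 1.33), a fold of 97.7, with adjusted p = 0.0058. It was the 1 member called in gill, higher in GFP, and 0 were called lower, beside 2.29% of all genes called higher, 2.31% called lower and 4.59% called either way. That near-even split of 244 and 246 genes depends on the scale, with 177 higher and 268 lower under RLE scaling and 555 higher and 184 lower by limma on log2(TPM + 1). The call held in all 12 fits that left out 1 library (highest adjusted p 0.0260) and in all 12 other alternatives. Gill DsRedx values were 0.834 to 1.23% of the gill GFP mean, near the shared low level of the tissue. That level, 1.3%, was above each of these values, so its subtraction left 0 counts in the gill DsRedx libraries. No fold is given for that fit (adjusted p = 0.00206). Epithelial markers were also higher in gill GFP than in gill DsRedx libraries, in the sums given above, and their part in the AP2S1 difference was not tested.

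In the intestine AP2S1 was at 259, 201 and 114 CPM in GFP libraries, against 3.31, 94.8 and 58.2 CPM in DsRedx libraries. The groups did not overlap, but 2 of the 3 DsRedx libraries lay near the lowest GFP library and 1, replicate 1, was far below. The log2 fold change was 1.88 (SE 1.07) and was not called (adjusted p = 0.301). Between the DsRedx groups AP2S1 had a log2 fold change of -4.80 (SE 1.23) in gill over intestine, also not called (adjusted p = 0.0708, and 0.0486 without intestine DsRedx replicate 1, 0.0454 with no filter, 0.0472 with the shared low level subtracted and 0.00103 by DESeq2). Between the GFP groups it was -0.06 (SE 1.04), a sign that turned with RLE scaling, DESeq2, no filter, a filter of 10 CPM in 3 libraries and the fit of the 2 groups alone. The difference of the GFP effects, gill minus intestine, was 4.73 (SE 1.55, adjusted p = 0.186), so that a larger effect in gill was not shown by this test. DESeq2 however gave adjusted p = 0.033 and subtracting the shared low level gave 0.0468. In the fit with that level subtracted, the gill DsRedx libraries had no AP2S1 counts left.

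**Figure D2:**
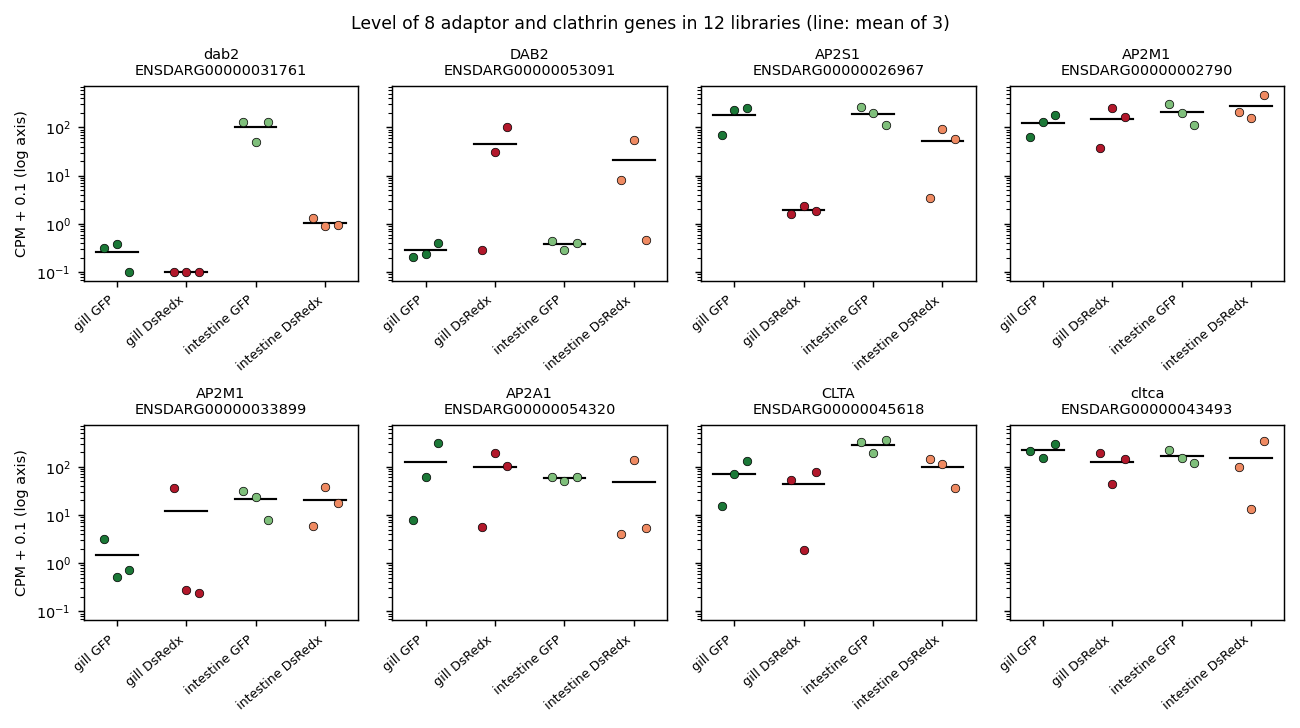
Level of the 8 tested genes in the 12 libraries, as CPM plus 0.1 on a log axis, with 1 point per library and a line at the mean of 3. AP2S1 lies at 1.53 to 2.26 CPM in gill DsRedx libraries and at 69.2 CPM or more in all GFP libraries, and dab2 is high in intestine GFP libraries, at 50.2 CPM or more.

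The mu subunit gene AP2M1 (ENSDARG00000002790), whose product reads sorting signals in receptor tails, was read in every library. It was at 62.6, 129 and 177 CPM in gill GFP libraries, against 38.1, 252 and 167 CPM in gill DsRedx libraries. In the intestine it was at 307, 204 and 114 CPM in GFP libraries, against 212, 154 and 480 CPM in DsRedx libraries. Both tissues overlapped between the colors, and the log2 fold changes were -0.31 (SE 0.84, adjusted p = 0.876) in gill and -0.44 (SE 0.84, adjusted p = 0.867) in intestine.

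The second AP2M1 identifier, ENSDARG00000033899, was lower and more uneven. It had 3.08, 0.423 and 0.622 CPM in gill GFP libraries, against 36.1, 0.174 and 0.138 CPM in gill DsRedx libraries. In the intestine it had 31.7, 23.7 and 7.84 CPM in GFP libraries, against 5.79, 38.6 and 18 CPM in DsRedx libraries. A single library, gill DsRedx replicate 1, held nearly all of its gill DsRedx counts, and without that library the log2 fold change of gill GFP over gill DsRedx was 2.98 in place of -3.12. Of the TPM summed over both AP2M1 identifiers, ENSDARG00000002790 made up 94.1 to 99.6% in gill GFP libraries, against 45.2, 99.9 and 99.9% in gill DsRedx libraries. It made up 87.0 to 91.9% in intestine GFP libraries, against 75.7 to 96.6% in intestine DsRedx libraries. How reads shared by such copies were assigned is not stated in the labels or notes, so that the split between them is uncertain.

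The alpha subunit gene AP2A1 (ENSDARG00000054320) was uneven in 3 of the 4 groups. It was at 7.86, 62.3 and 307 CPM in gill GFP libraries, against 5.55, 191 and 105 CPM in gill DsRedx libraries. The intestine values were 62.4, 51.7 and 60.3 CPM in GFP libraries, against 4.0, 136.9 and 5.31 CPM in DsRedx libraries. The intestine GFP libraries lay close together, while the intestine DsRedx libraries spanned values both below and above them. The log2 fold changes of GFP over DsRedx were 0.32 (SE 1.42) in gill and 0.25 (SE 1.42) in intestine, with adjusted p = 0.939 and 0.969.

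The beta subunit gene AP2B1, not a member but part of the same complex, was at 38.1, 56.1 and 30.5 TPM in gill GFP libraries, against 0.798, 9.05 and 32.1 TPM in gill DsRedx libraries, and was not called (adjusted p = 0.642). Intestinal levels were 19.4, 26.3 and 38.0 TPM in GFP libraries, against 3.0, 40.5 and 0.909 TPM in DsRedx libraries (adjusted p = 0.890). With both AP2M1 identifiers summed, all 4 kinds of AP2 subunit reached 5 TPM in 2 gill GFP libraries and 0 gill DsRedx libraries. They did so in 3 intestine GFP libraries and 1 intestine DsRedx library. The limit of 5 TPM was set after the values were seen, and the counts are a description with no test. In the 3 gill DsRedx libraries it was the sigma subunit that was under it each time, at 0.842, 1.08 and 0.984 TPM, joined by alpha and beta in replicate 1.

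**Figure D3:**
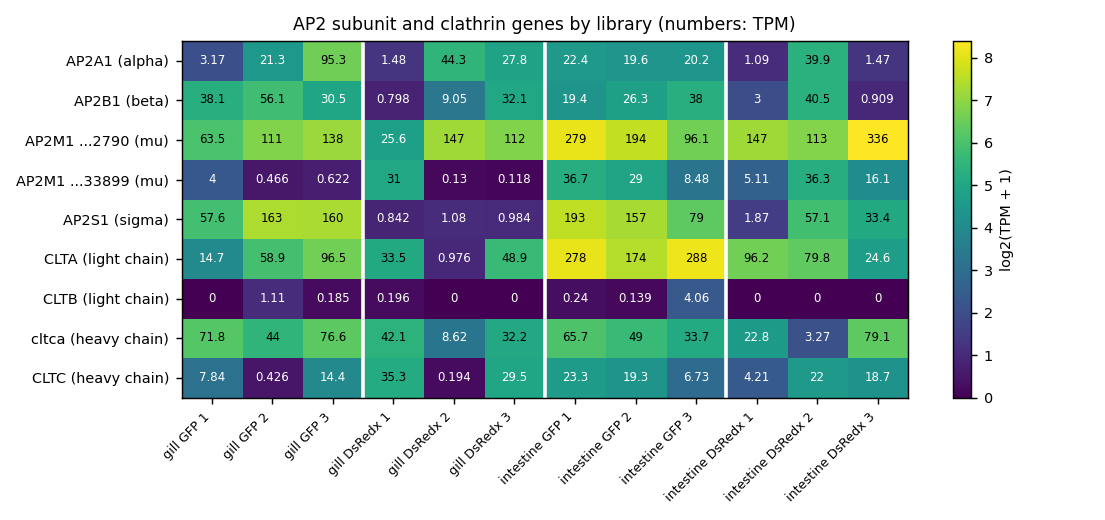
TPM of the AP2 subunit and clathrin chain genes (rows) in the 12 libraries (columns), written in each cell and colored by log2(TPM + 1). AP2S1 is at 0.842 to 1.08 TPM in the 3 gill DsRedx columns, and in the intestine GFP columns all rows but CLTB are above 5 TPM.

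The clathrin light chain gene CLTA (ENSDARG00000045618) was highest in the intestine GFP cells. It was at 320, 190.3 and 354 CPM in intestine GFP libraries, against 145, 113 and 36.7 CPM in intestine DsRedx libraries. In gill it was at 15.1, 71.2 and 129 CPM in GFP libraries, against 52.0, 1.74 and 76.2 CPM in DsRedx libraries. The intestine GFP values lay above those of the other 3 groups without overlap, and within gill the colors overlapped. None of these differences was called: the log2 fold change was 1.55 (SE 1.1, adjusted p = 0.451) in intestine, 0.73 (SE 1.09, adjusted p = 0.718) in gill and -2.01 (SE 1.12, adjusted p = 0.430) in gill GFP over intestine GFP cells. The other light chain gene, CLTB, was too low to be tested, with at most 4.06 TPM in any library.

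The clathrin heavy chain gene cltca (ENSDARG00000043493) forms the legs of the clathrin triskelion and was read in all 12 libraries. It was at 213, 154 and 295 CPM in gill GFP libraries, against 189, 44.3 and 145 CPM in gill DsRedx libraries. For the intestine the values were 218, 154 and 120.1 CPM in GFP libraries, against 99.4, 13.4 and 340.4 CPM in DsRedx libraries. The colors overlapped in both tissues, and the GFP libraries lay within a range of 120.1 to 295 CPM while the DsRedx libraries ran from 13.4 to 340.4 CPM. The log2 fold changes were 0.81 (SE 0.96, adjusted p = 0.627) in gill and 0.12 (SE 0.95, adjusted p = 0.985) in intestine.

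A second heavy chain gene, CLTC (ENSDARG00000090716), took part of the heavy chain reads. cltca made up 84.2 to 99.0% of the TPM summed over both in gill GFP libraries, against 54.4, 97.8 and 52.2% in gill DsRedx libraries. In intestine GFP libraries it made up 71.7 to 83.4%, against 84.4, 12.9 and 80.9% in intestine DsRedx libraries. Summed, the 2 genes were at 44.4 to 91.0 TPM in gill GFP libraries, against 8.81 to 77.4 TPM in gill DsRedx libraries. The intestine DsRedx replicate in which cltca was lowest, replicate 2, held 22 TPM of CLTC against 3.27 TPM of cltca. CLTC itself was not called in any comparison.

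**Figure D4:**
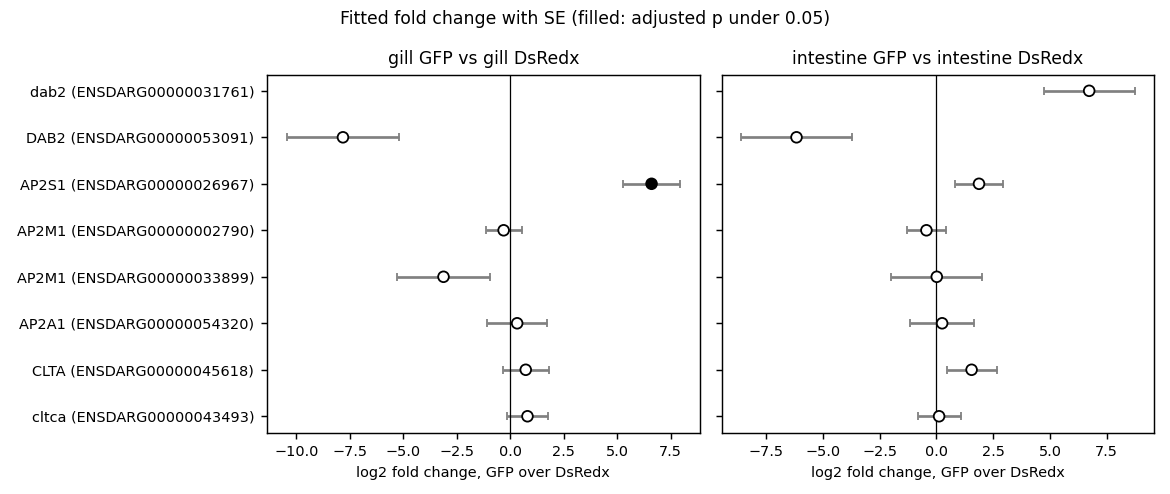
Fitted log2 fold change of GFP over DsRedx, with its SE, for the 8 tested genes in gill (left) and intestine (right), filled where the adjusted p is under 0.05. AP2S1 in gill, at 6.61, is the filled point; dab2 in gill is not drawn, with 4 counts in GFP and 0 in DsRedx libraries, and the DAB2 points rest on 4 counts in gill GFP and 10 in intestine GFP libraries.

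Over the 8 tested members, the median log2 fold change of GFP over DsRedx was 0.52 in gill and 0.19 in intestine, beside 0.00 and 0.08 over all genes. The gill median includes dab2, which had 4 counts in gill GFP and 0 in gill DsRedx libraries. The median between the DsRedx groups, given below, includes it as well. In intestine 0 members were called by edgeR, where 4.12% of all genes were called (2.09% higher and 2.03% lower, or 223 and 216 genes, against 875 and 272 by limma on log2(TPM + 1)), with 2 members at an unadjusted p under 0.05 and 2 called by DESeq2. Library values of GFP lay wholly above DsRedx for 1 member in gill and 3 in intestine, where 12.1% and 19.4% of all genes did, and wholly below for 0 and 1, where 7.99% and 10.4% did. In gill GFP over intestine GFP cells the median was -0.66 beside -0.22 over all genes, and 3 members lay wholly below, as 18.5% of all genes did, while 8.69% of all genes lay wholly above. For gill DsRedx over intestine DsRedx cells the median was -0.83 beside -0.16, and 2 members lay wholly below, as 12.2% of all genes did. No member was called between the DsRedx groups, where 0.759% of all genes were, with 2 at an unadjusted p under 0.05 and 2 called by DESeq2. For the difference of the GFP effects the count was likewise 0, where 0.15% of all genes were called (0.0563% higher and 0.0938% lower), with 1 at an unadjusted p under 0.05 and 1 called by DESeq2.

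The order of the levels across groups differed from gene to gene. dab2 ran from intestine GFP at 104 ± 46.5 CPM to intestine DsRedx at 0.967 ± 0.239, gill GFP at 0.165 ± 0.147 and gill DsRedx at 0 (SD, n = 3 each), with the 2 gill groups overlapping. AP2S1 ran from intestine GFP at 191 ± 73.1 CPM and gill GFP at 183 ± 99.4, which overlapped, to intestine DsRedx at 52.1 ± 46.0, which overlapped gill GFP, and gill DsRedx at 1.86 ± 0.370. CLTA ran from intestine GFP at 288 ± 86.4 CPM to intestine DsRedx at 98.4 ± 55.8, gill GFP at 71.6 ± 56.8 and gill DsRedx at 43.3 ± 38.0, the last 3 overlapping their neighbors. For cltca (126 ± 74.0 to 220.5 ± 71.0 CPM), AP2A1 (48.7 ± 76.3 to 125.8 ± 159) and AP2M1 (ENSDARG00000002790, 123 ± 57.4 to 282 ± 174) each group overlapped the next. Per length, AP2M1 (ENSDARG00000002790) was the highest of the 9 AP2 and clathrin chain genes in 7 of the 12 libraries, AP2S1 and cltca in 2 each and CLTA in 1.

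Agreement between replicates set how far these levels can be read. Among members with a group mean of at least 20 CPM, the lowest library was under 10% of the highest for 1 of 5 in gill GFP and 3 of 5 in gill DsRedx cells, and for 0 of 7 in intestine GFP and 4 of 7 in intestine DsRedx cells. Over all genes of that level the shares were 38.3% and 65.1% in gill and 10.7% and 46.0% in intestine. The members thus followed the order of all genes, in which the intestine GFP libraries were the most even of the 4 groups.

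Other receptors of the LDL receptor family and the sorting receptors were read where cubilin and megalin were not. Of 23 identifiers in that list 10 were tested. In gill 2 were called higher and 0 lower in GFP than in DsRedx cells (median log2 fold change 1.35, beside 0.00 over all genes). In intestine 2 were called higher and 0 lower in GFP than in DsRedx cells (median 1.08, beside 0.08). Over all genes 2.29% were called higher and 2.31% lower in gill, and 2.09% and 2.03% in intestine. SORL1, a sorting receptor with LDL receptor repeats, was at 75.3, 47.1 and 53.9 TPM in gill GFP libraries, against 0.172, 0.382 and 0.198 TPM in gill DsRedx libraries. In the intestine it was at 29.1, 11.2 and 2.94 TPM in GFP libraries, against 0.153, 0.183 and 0.0695 TPM in DsRedx libraries. GFP libraries lay above DsRedx libraries in both tissues, with log2 fold changes of 7.35 (SE 1.42, adjusted p = 0.00408) in gill and 6.35 (SE 1.36, adjusted p = 0.00829) in intestine.

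SORT1 (ENSDARG00000056252), encoding sortilin, was at 47.4, 70.0 and 87.0 TPM in gill GFP libraries, against 0.387, 0.357 and 0.463 TPM in gill DsRedx libraries (log2 fold change 6.97, SE 1.86, adjusted p = 0.0357). Epithelial markers moved with SORL1 in both tissues and with SORT1 in gill, and their part was not tested. In intestine SORT1 was not called. ldlra, an LDL receptor gene, was a gene of the intestine GFP libraries, at 149, 149 and 195 TPM, against 1.21, 1.42 and 1.53 TPM in intestine DsRedx libraries (log2 fold change 6.54, SE 1.24, adjusted p = 0.00395). It had 1 count in gill GFP and 0 in gill DsRedx libraries. By edgeR ldlra was called lower in gill GFP than in intestine GFP cells (adjusted p = 0.000155). The pooled ratio was 9422-fold lower in gill GFP cells, and it rests on that 1 count (exact 95% interval 1691 to 372181, counting error only). Enterocyte markers moved with ldlra as with dab2, and their part was not tested. The intestine DsRedx levels of ldlra, like those of dab2, were close to 1% of the GFP level.

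In the list of other uptake receptors the genes called between the colors, fcer1g and scarb2a, were lower in GFP cells. The transferrin receptor gene tfr1b, not called, had the higher mean in GFP cells of both tissues. Of 25 identifiers 8 were tested, each color against the other in its tissue. In gill GFP cells 0 were called higher and 1 lower (median log2 fold change -3.1). In intestine GFP cells 0 were called higher and 2 lower (median -4.08). The shares of all genes were 2.29% higher and 2.31% lower in gill, and 2.09% and 2.03% in intestine. fcer1g, the signaling chain of Fc receptors in leukocytes, was at 17.2, 13.7 and 10.8 TPM in gill GFP libraries, against 1370, 769.8 and 152 TPM in gill DsRedx libraries (log2 fold change -6.26, SE 1.24, adjusted p = 0.00501). It was also lower in intestine GFP cells (log2 fold change -5.24, SE 1.18, adjusted p = 0.012). Macrophage and leukocyte markers, given above, were lower in the same libraries, and their part was not tested. scarb2a, which encodes a lysosomal membrane receptor, was at 0.373, 0.467 and 0.385 TPM in intestine GFP libraries, against 43.0, 79.4 and 24.6 TPM in intestine DsRedx libraries (log2 fold change -7.23, SE 1.31, adjusted p = 0.00211). The transferrin receptor gene tfr1b, the textbook cargo receptor of AP2, averaged 54.7 ± 35.3 TPM in gill GFP cells and 5.71 ± 8.09 TPM in gill DsRedx cells (SD, n = 3 each), and was not called (adjusted p = 0.206). In the intestine it averaged 65.4 ± 20.3 TPM in GFP cells and 4.53 ± 4.35 TPM in DsRedx cells, also not called (adjusted p = 0.182).

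The lists of other cargo adaptors and of fission genes were small beside a background of 4.59% of all genes called in gill and 4.12% in intestine. Among 18 tested cargo adaptor and coat assembly genes other than the dab2 identifiers, 0 were called in either tissue by edgeR. Of all 20 in that list, 1 in gill and 5 in intestine had an unadjusted p under 0.05. The epsin gene epn1a averaged 55.6 ± 32.4 TPM in gill GFP and 116 ± 98.6 TPM in gill DsRedx cells, and 84.5 ± 38.9 TPM in intestine GFP and 50.5 ± 24.1 TPM in intestine DsRedx cells. Among 17 genes of membrane fission and uncoating 0 were called in either tissue, with 2 in each at an unadjusted p under 0.05. HSPA8 (1 of 2 identifiers of that symbol), the chaperone that strips clathrin from vesicles, averaged 516 ± 79.6 TPM in gill GFP and 435 ± 64.6 TPM in gill DsRedx cells. It averaged 667 ± 111 TPM in intestine GFP and 754 ± 249 TPM in intestine DsRedx cells, with overlapping libraries in each tissue.

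AP1, the related complex that works at the trans-Golgi network and endosomes, had a subunit that parted the colors in both tissues. Of 16 tested AP1 and AP3 genes 2 were called higher and 0 lower in gill GFP cells, and 1 higher and 0 lower in intestine GFP cells. Beside these, 2.29% of all genes were called higher and 2.31% lower in gill, and 2.09% and 2.03% in intestine. AP1M2, the mu subunit of the epithelial form of AP1, was at 255, 273 and 255 TPM in gill GFP libraries, against 1.33, 2.24 and 1.67 TPM in gill DsRedx libraries. The intestine values were 223, 199 and 223 TPM in GFP libraries, against 1.97, 1.77 and 1.68 TPM in DsRedx libraries. The log2 fold changes were 6.74 (SE 1.12, adjusted p = 0.00106) and 6.54 (SE 1.11, adjusted p = 0.00107), and both calls held in all 12 fits that left out 1 library. The sigma subunit gene ap1s3b was at 344, 589 and 428 TPM in gill GFP libraries, against 4.93, 4.34 and 3.74 TPM in gill DsRedx libraries (log2 fold change 6.26, SE 1.25, adjusted p = 0.00541). Intestinal levels were 196, 277 and 366 TPM in GFP libraries, against 4.26, 65.1 and 91.7 TPM in DsRedx libraries (log2 fold change 2.06, adjusted p = 0.229), with intestine DsRedx replicate 1 low as for AP2S1. Epithelial markers, given above, moved with these genes, and their part was not tested.

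Past the plasma membrane, 51 genes of early endosomes and recycling were tested. In gill 2 were higher and 1 lower in GFP cells, and in intestine 1 was higher and 0 lower, with medians of -0.16 and -0.51, beside 0.00 and 0.08 over all genes. These counts are near the share of all genes called, 4.59% in gill and 4.12% in intestine. The Rab11 effector gene rab11fip1b was at 1767, 165 and 753 TPM in gill GFP libraries, against 2.88, 3.42 and 3.1 TPM in gill DsRedx libraries (log2 fold change 7.60, SE 1.34, adjusted p = 0.00195). rab11fip1a, its paralog, was higher in both tissues, with log2 fold changes of 6.72 (SE 1.63, adjusted p = 0.0214) in gill and 6.33 (SE 1.58, adjusted p = 0.0239) in intestine. RAB20, a Rab of phagosome maturation, was at 1.05, 0.396 and 0.792 TPM in gill GFP libraries, against 39.5, 287 and 136.5 TPM in gill DsRedx libraries (log2 fold change -8.19, SE 1.51, adjusted p = 0.00268).

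A last list held cargo handling partners of absorptive cells, with 9 of 19 identifiers tested. In gill 1 was called higher and 3 lower in GFP cells, and in intestine 2 were called higher and 3 lower. The median log2 fold changes were -1.96 in gill and -2.39 in intestine, beside 0.00 and 0.08 over all genes. Of all genes, 2.29% were called higher and 2.31% lower in gill, and 2.09% and 2.03% in intestine. gipc2, of a family whose member Gipc1 binds the megalin tail in mammals, was at 124, 163 and 176 TPM in gill GFP libraries, against 1.66, 1.19 and 0.957 TPM in gill DsRedx libraries (log2 fold change 6.49, SE 1.14, adjusted p = 0.00195). In intestine GFP libraries it was at 277, 341 and 306 TPM, against 4.31, 4.68 and 1.79 TPM in intestine DsRedx libraries (log2 fold change 6.07, SE 1.12, adjusted p = 0.00242). FABP6, a bile acid binding protein of the ileum, was higher in intestine GFP than in intestine DsRedx cells (log2 fold change 6.72, SE 0.99, adjusted p = 0.000612) and had 0 counts in all gill libraries. FABP6 is also in the enterocyte marker list above. The sum of that list was higher in the same libraries, and its part was not tested.

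Several lysosomal proteases of this list were lower in GFP cells of 1 or both tissues. LGMN (legumain) was at 104, 169 and 311 TPM in intestine GFP libraries, against 2175, 3179 and 1511 TPM in intestine DsRedx libraries (log2 fold change -3.87, SE 0.56, adjusted p = 0.000255). In gill, where LGMN was at 425, 694 and 639 TPM in GFP libraries, against 749, 899 and 388 TPM in DsRedx libraries, it was not called (adjusted p = 0.394). CTSB (ENSDARG00000055120) was lower in both tissues, with log2 fold changes of -1.96 (SE 0.50, adjusted p = 0.0295) in gill and -3.07 (SE 0.52, adjusted p = 0.00117) in intestine. CTSZ, another cathepsin gene, was at 32.8, 74.0 and 65.0 TPM in gill GFP libraries, against 107, 619 and 675 TPM in gill DsRedx libraries (log2 fold change -3.47, SE 0.80, adjusted p = 0.016). DPP7, a dipeptidyl peptidase gene, was lower in both tissues, with log2 fold changes of -3.51 (SE 0.87, adjusted p = 0.0247) in gill and -3.24 (SE 0.86, adjusted p = 0.035) in intestine. Macrophage and leukocyte markers were lower in the same GFP libraries, in the sums given above, and their part in these differences was not tested. ctsbb was a gene of both intestine groups, at 101, 244 and 85.8 TPM in GFP libraries, against 76.4, 16.4 and 256.7 TPM in DsRedx libraries, with 1 count in gill GFP and 25 in gill DsRedx libraries.

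**Figure D5:**
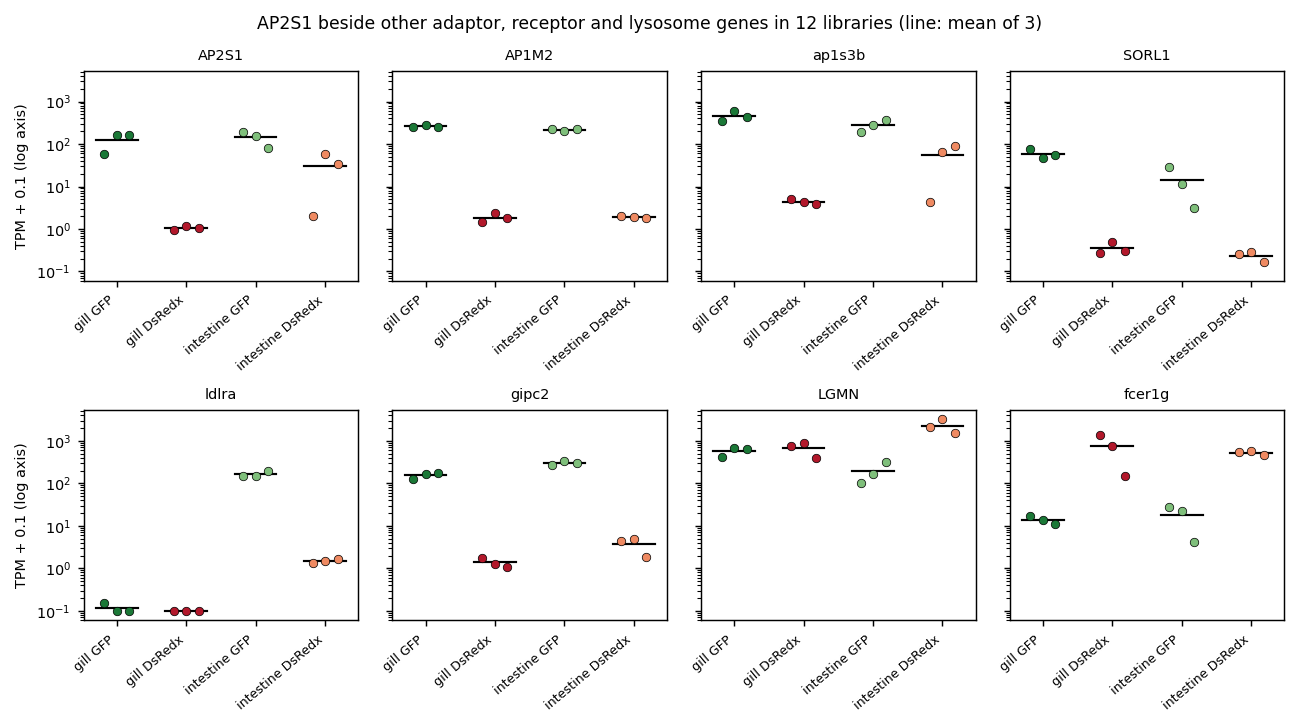
AP2S1 beside 7 adaptor, receptor and lysosome genes in the 12 libraries, as TPM plus 0.1 on a log axis, with 1 point per library and a line at the mean of 3. AP1M2 and gipc2 lie at 124 TPM or more in all GFP libraries and at 4.68 TPM or less in all DsRedx libraries, ldlra is high in intestine GFP libraries, LGMN is lowest in intestine GFP libraries and fcer1g is lower in the GFP libraries of both tissues.

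Genes with the profile most like a member's were ranked by the root mean square difference of log2(CPM + 1), centered on each gene's mean, over the 12 libraries. For dab2 the 2 closest were RABL6 (0.22) and dlg1a (0.24), which were at 88.7 and 105 CPM in intestine GFP cells on average and at or under 1.04 CPM in each of the other groups. For AP2S1 the closest gene was ap1s3b (0.75), the AP1 sigma subunit gene above, followed by zgc:92360 (0.79) and CDC40 (0.92). DAB2 was closest to si:dkey-7i4.1 (0.51) and tnfrsf9b (0.78), both read mainly in DsRedx cells. AP2M1 (ENSDARG00000002790) was closest to UQCRH (0.52) and MSN (0.53), cltca to tank (0.67) and CLTA to CIB1 (0.84). AP2M1 (ENSDARG00000033899) and AP2A1 had no neighbor closer than tomm20a (1.0) and ETFA (0.96). The likeness is a description over libraries that share their sorting, depth and preparation.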

How the data were processed

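The authors deposited a table of raw counts per Ensembl gene, 1 column for each of the 12 samples, and a second table of the same genes in TPM (the unit is named in the deposited table and its columns share 1 sum). Per the submitters' processing notes STAR, featureCounts and the danRer11 build were used. The labels and notes state neither tool versions nor the strand setting, nor how a read matching several copies was assigned. Libraries were made by SMART-seq2 from sorted cells and read as pairs of 150 bases, per the labels' protocols.

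Here, counts were tested in R 4.3.3 with edgeR 4.0.16: filterByExpr kept 10666 of 32520 genes, sizes were adjusted by TMM, and a quasi-likelihood F test was run on 1 mean per group over 12 libraries (8 residual degrees of freedom, common biological coefficient of variation 1.42). The 5 contrasts were the 2 color contrasts, the 2 tissue contrasts and the difference of the color effects. Calls were made at p under 0.05 after adjustment (Benjamini-Hochberg) across the 10666 genes. SE is the size of the log2 fold change divided by the root of F, so it is not given where a group had no counts. The method was run on simulated counts first, and it had to recover most of the set changes at a small spread. What it recovered at the spread of these libraries is not reported here. A gene that was not called therefore cannot be read as unchanged. The shared low level of a tissue is the median ratio of the lower to the higher color mean over genes at 500 CPM or more in 1 color and under 5% of that in the other, so that its size follows in part from that limit; as an alternative it was subtracted, as a share of the other color's mean. TPM values served to compare genes and for 2 alternatives by limma 3.58.1, and DESeq2 1.42.0 was another alternative.

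Names came from the gene name table (29201 of 32520 identifiers) and, for lrp2a, ap2m1a and some list names, RefSeq synonyms; 350 of 438 list names were matched over 8 pathway and 11 marker lists. The named genes were drawn from each pathway list's called genes, up to 4 of smallest p per contrast, or the 2 of highest mean TPM where none was called. The members, lists and tests were chosen with earlier results of these data known. Other receptors of the lists and the genes of the population check were looked up by name.

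Other marker lists are given as summed CPM, over both tissues unless a tissue is named. Goblet and enteroendocrine markers ran from 0 to 335.7 in GFP and 0.276 to 3.45 in DsRedx libraries, and ionocyte and gill epithelium markers from 353 to 870.5 in GFP and 706 to 1359 in DsRedx libraries. T cell and NK cell markers ran from 1636 to 5402 in GFP and 1658 to 6484 in DsRedx, B cell markers from 0 to 9.67 in GFP and 0.414 to 80.4 in DsRedx, and neutrophil markers from 18.8 to 182 in GFP and 42.5 to 545 in DsRedx libraries. Endothelial and stromal markers ran from 5.64 to 21.7 in gill GFP and 304 to 551 in intestine GFP libraries. They ran from 8.99 to 298 in gill DsRedx and 17.0 to 203 in intestine DsRedx libraries. Erythrocyte and thrombocyte markers ran from 0 to 1.17 in GFP and 0 to 0.133 in DsRedx libraries. Pancreatic acinar markers ran from 0 to 11.5 in GFP libraries and were at 0 in DsRedx libraries.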

Additional observations from a re-analysis of the deposited data

How the results depend on the processing

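Depth, 12 libraries and a large spread between libraries limit what can be read: 40 log2 fold changes (8 members, 5 contrasts) were refitted under 12 alternatives and without each library. The call of AP2S1 in gill held throughout, and dab2 between the GFP groups was called in 4 of 12 fits that left out a library and 7 of 12 others. Values that changed sign were not called under the alternative, and the cause was not tested.

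The shift of a gene's log2 fold change from the fit used is given as the median over all genes. With RLE scaling it was -0.25 (gill), -0.23 (intestine), 0.24 (GFP, gill over intestine) and 0.29 (DsRedx, gill over intestine). With upper-quartile scaling it was 0.19 in intestine, 0.12 between the DsRedx groups and -0.17 for the difference. By DESeq2 it was -0.25, -0.23, 0.26 and 0.30. With RLE scaling calls in gill split into 177 higher and 268 lower, in place of 244 and 246, and between the DsRedx groups into 21 and 28, in place of 24 and 57. With upper-quartile scaling the difference split into 4 and 11, in place of 6 and 10, and by DESeq2 into 416 and 385. By limma on log2(TPM + 1) and log2(TPM + 0.1) calls split into 555 higher and 184 lower and into 572 and 190 in gill, and into 875 and 272 and into 880 and 280 in intestine, in place of 223 and 216. Between the GFP groups log2(TPM + 0.1) gave 184 and 591, in place of 75 and 142.

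Genes called in gill were 490 in the fit used and 2589 by DESeq2, 739 and 762 by limma on log2(TPM + 1) and log2(TPM + 0.1), 244 with detected genes as covariate and 236 with only the 2 groups. In intestine they were 439, and 1858, 1147, 1160, 132 and 1079 under the same alternatives. Between the GFP groups they were 217, and 1080 by DESeq2, 743 and 775 by limma, 18 with the covariate and 107 with the shared low level subtracted. Between the DsRedx groups they were 81, and 49 with RLE scaling, 267 with no filter, 1584 by DESeq2, 153 by limma on log2(TPM + 0.1), 3 with the covariate and 11 with subtraction. For the difference they were 16, and 9 with RLE, 107 with no filter, 801 by DESeq2, 316 and 0 by limma, 2 with the covariate and 36 with subtraction.

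Members called in gill were 1, and 2 by DESeq2. In intestine they were 0, and 2 by DESeq2 and 1 by either limma fit or with only the 2 groups. Between the GFP groups they were 1, and 0 with RLE scaling, no filter, the replicate block, the covariate or subtraction. Between the DsRedx groups they were 0, and 1 with no filter, 2 by DESeq2 and 1 with subtraction. For the difference they were 0, and 1 by DESeq2, limma on log2(TPM + 1) or subtraction.

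Signs turned as follows (log2). For AP2M1 (ENSDARG00000002790) in gill the value was 0.40 and 0.41 by limma and 0.47 with the covariate, in intestine 0.83 with the covariate, and for the difference -0.36 with the covariate, -0.043 with the replicate block and -0.072 with upper-quartile scaling. For AP2M1 (ENSDARG00000033899) it was 0.034 in gill by limma on log2(TPM + 0.1). In intestine it was -2.68 with the covariate, -0.20 with RLE, -0.17 with no filter, -0.18 with 10 CPM in 3 libraries, -0.20 by DESeq2, -0.72 with the replicate block, -0.067 with subtraction and -0.17 with only the 2 groups. With the covariate it was 0.39 between the GFP groups and 2.30 between the DsRedx groups. For AP2A1 between the GFP groups it was -0.064 and -0.14 by limma, -5.34 with the covariate and -0.36 with the replicate block, and between the DsRedx groups -3.76 with the covariate. For its difference it was -1.38 and -1.71 by limma, -1.59 with the covariate, -0.023 with RLE and by DESeq2, -1.52 with the replicate block and -0.11 with upper-quartile scaling. For cltca in intestine it was -0.0088 with the covariate, -0.16 with RLE and by DESeq2, -0.11 with no filter, -0.10 with 10 CPM in 3 libraries and with only the 2 groups, and between the DsRedx groups 0.25 and 0.32 by limma and 0.064 with the replicate block. For AP2S1 between the GFP groups it was 0.23 with RLE and by DESeq2, 0.19 with no filter, 0.12 with 10 CPM in 3 libraries and 0.038 with only the 2 groups.

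Leaving out each library gave 231 to 492 genes called in gill, 181 to 543 in intestine, 96 to 273 between the GFP groups, 35 to 83 between the DsRedx groups and 1 to 17 for the difference. Members called were 0 to 1 between the GFP groups and 0 to 1 between the DsRedx groups, and as in the fit used elsewhere. Log2 fold changes that turned in such fits ran from -0.78 to 0.25 for AP2M1 (ENSDARG00000002790), -4.50 to 2.98 for AP2M1 (ENSDARG00000033899) and -1.50 to 1.2 for AP2A1 in gill. In intestine they ran from -0.63 to 0.82 for AP2M1 (ENSDARG00000033899), -0.47 to 3.64 for AP2A1 and -0.42 to 1.35 for cltca. Between the GFP groups they ran from -0.36 to 0.32 for AP2S1 and -0.73 to 1.65 for AP2A1. Between the DsRedx groups they ran from -0.33 to 3.44 for DAB2 (ENSDARG00000053091), -6.93 to 0.019 for AP2M1 (ENSDARG00000033899) and -0.81 to 1.21 for cltca. For the difference they ran from -4.01 to 0.0022 for DAB2, -0.29 to 0.81 for AP2M1 (ENSDARG00000002790), -4.53 to 3.1 for AP2M1 (ENSDARG00000033899), -3.31 to 1.09 for AP2A1, -1.56 to 0.050 for CLTA and -0.54 to 1.23 for cltca.

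Replicate numbers are shared by the 4 groups, but the labels tie them to no fish or day. Deviations from the group means of same-numbered libraries correlated at -0.0344 to 0.0418 (median 0.00693, 18 pairs). Libraries of other numbers correlated at -0.0368 to 0.0464 (median -0.00738, 36 pairs), and 7 of 12 libraries were closest to their own number. These values do not decide whether the numbers pair the samples. The fit used did not pair them, since the labels give no ground for it, and the replicate block is the alternative. With the replicate block dab2 between the GFP groups had adjusted p = 0.0595 and AP2S1 in gill stayed called.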
